A study of Mus musculus with 6 samples.

Results

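The immunity-related GTPases (IRG proteins) are interferon-inducible GTPases of mouse cells. The 8 genes described here were Irgm1, Irgm2, Igtp, Iigp1, Ifi47, Tgtp1, Tgtp2 and, of a separate family, Gvin1. They were found by gene symbol, and all 8 were among the 54532 genes of the deposited count table. The samples were N9 cells, an immortalized mouse microglial line. The libraries labelled control came from untreated cells (n = 3), and those labelled LPS came from cells kept with lipopolysaccharide at 1 µg/ml for 6 h (n = 3). The labels do not say whether the replicates were separate cultures, so p-values measure the spread between these samples, which may be technical. N9 is 1 line, and in bulk libraries a change in RNA per cell and a change in the number of cells that hold the RNA cannot be told apart.

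IRG proteins are part of cell-autonomous immunity, in which a cell attacks an intracellular parasite or bacterium by disrupting the vacuole around it. One subgroup, the GMS proteins, named for an unusual methionine in the nucleotide-binding loop, comprises Irgm1, Irgm2 and Igtp (also called Irgm3). GMS proteins sit on the cell's own membranes and keep the effector IRG proteins inactive there. The effectors, or GKS proteins, include Iigp1 (Irga6), Ifi47 (Irgd) and the near-identical Tgtp1 and Tgtp2 (Irgb6), which load onto pathogen vacuoles. Gvin1 belongs to a separate family of very large interferon-inducible GTPases, the GVIN family. LPS reaches these genes through TLR4, the adaptor TRIF and secreted type I interferon, which acts back on the cell through its receptor.

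All 3 genes of the GMS regulators and the effectors Ifi47 and Iigp1 were up-regulated by LPS, as was Gvin1. Irgm1, Igtp and Irgm2 rose 9.05-fold, 12-fold and 12.5-fold in mean CPM (counts scaled to a common library size, corrected by TMM). Ifi47 rose 3.57-fold, and Iigp1 went from 5 control counts in all to 21 or more in each LPS library. Tgtp1 and Tgtp2 together held 1 count in the control group and 28 in the LPS group. With an adjusted p under 0.05 and a log2 fold change over 1.5, the thresholds stated in the study's methods, 6 of the 8 members were called up-regulated by edgeR's quasi-likelihood test and none was down-regulated, and Tgtp1 and Tgtp2 had too few counts to be tested. Of all 12296 genes tested, 2.4% were called up-regulated and 0.252% down-regulated, 2.65% in all. The median log2 fold change of the 6 tested members was 3.38, beside 0 for all tested genes. Iigp1 and Gvin1 passed the filter on low counts only through their LPS libraries, since its minimum of 0.589 CPM was reached by 0 and 1 of their control libraries, so their place in that count and median follows in part from the filter. The other tested members, Irgm1, Igtp, Irgm2 and Ifi47, reached that minimum in all 6 libraries. Every LPS library lay above every control library for all 8 members, and this was true of 23.7% of the tested genes.

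**Figure D1:**
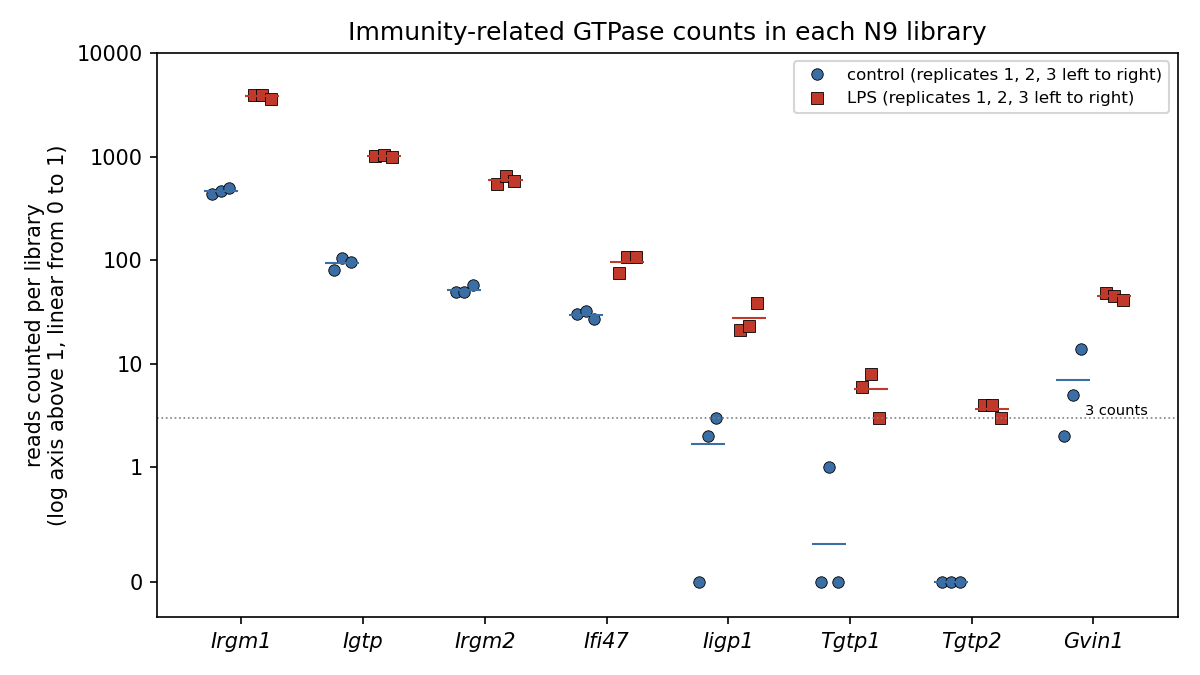
Reads counted on each of the 8 genes in each library, with control libraries as blue circles and LPS libraries as red squares, each set with its mean as a short line; the y axis is logarithmic above 1 and linear from 0 to 1, and the dotted line marks 3 reads. Every red point lies above the blue points of the same gene, and Irgm1, Igtp and Irgm2 stand at least 548 reads high in the LPS libraries, whereas Tgtp1 and Tgtp2 do not pass 8.

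The facts of the libraries that touch these values are few. Total counts were between 16363767 and 17956772 per library, so that 3 counts correspond to between 0.161 and 0.19 CPM. The replicates differed from each other by more than sampling noise (chi-square between 3.58 and 7.83 per gene), and each was counted as a sample. General markers of microglia and macrophages were well counted, with Csf1r between 7140 and 8027 and Cd68 between 10267 and 11691 counts per library, and the 19 genes of that list summed to between 2330 and 2580 CPM. Markers of resident brain microglia were scarce: P2ry12 had between 3 and 6 counts per library, Sall1 had 1 in all and Siglech had none. The 24 hepatocyte markers summed to 5, 381 and 598 counts in control replicates 1, 2 and 3 and to between 6 and 12 in the LPS libraries, with Alb the most counted at 2, 155 and 292 in the controls. Against control replicate 1 alone, the log2 fold changes of Irgm1, Irgm2, Igtp and Ifi47 were 3.22, 3.67, 3.75 and 1.77. In that fit the spread comes from the LPS libraries only, and the lone control is assumed to vary like them. Of the lists for other brain cells, the 8 neuronal markers summed to between 82 and 98 counts in the controls and between 195 and 240 with LPS, most of them on Tubb3. The 8 astrocyte markers lay between 194 and 211 CPM. Aldoc held between 1551 and 2053 counts per library, Gja1 between 1151 and 1279 and Aldh1l1 between 350 and 534, whereas Gfap was at 10 or fewer. The 8 oligodendrocyte markers lay between 42.6 and 54.3 CPM. Mbp held between 457 and 672 counts per library and Cnp between 219 and 256, whereas Sox10 was at 0. The part of the neuronal, astrocyte and oligodendrocyte lists in the members' values was not tested.

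Of the members, 6 lie in 2 groups on chromosome 11, and the promoters of several share one short block of sequence. Promoter windows from RefSeq on GRCm38.p6, from 250 bases before to 50 bases after a transcription start, were found for 6 of the 8 members. Iigp1 and Gvin1 had none. Each window was searched on both strands for GAAA followed after any 2 bases by a second GAAA, the core of the interferon-stimulated response element (ISRE) that IRF proteins bind, and for TTCNNNGAA, the form of the gamma-activated sequence (GAS), an element of interferon-responsive promoters. The ISRE core was present in 5 of the 6 member windows and in 3.44% of all 32851 windows, and the GAS form in 4 of 6 and in 8.3%. The ISRE core is not particular to the members. Among genes with a window, it was present in 5 of 5 guanylate-binding proteins, GTPases described below. It was also present in 4 of 8 IRG and GVIN relatives and 2 of 8 interferon transcription factors. The GAS form was present in 2, 2 and 3 genes of these lists. The member stretches with matches are shown 5′ to 3′ on the strand of the gene because they show how alike the arrangement is. Capitals mark the matched bases: the GAS form first and then the ISRE core in the windows of Igtp, Irgm2, Tgtp1 and Tgtp2, and a pair of ISRE cores overlapping by 4 bases in that of Irgm1.
Igtp: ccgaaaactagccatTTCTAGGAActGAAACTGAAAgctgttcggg
Irgm2: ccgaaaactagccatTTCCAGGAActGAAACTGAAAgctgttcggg
Tgtp1: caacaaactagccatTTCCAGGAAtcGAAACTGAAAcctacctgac
Tgtp2: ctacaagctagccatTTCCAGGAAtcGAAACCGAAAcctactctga
Irgm1: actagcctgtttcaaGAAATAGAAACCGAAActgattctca
On GRCm38.p6 these stretches are chr11:58199496-58199541 and chr11:58214887-58214932 on the plus strand for Igtp and Irgm2. For Tgtp1, Tgtp2 and Irgm1 they are chr11:48992304-48992349, chr11:49064263-49064308 and chr11:48871425-48871465 on the minus strand.

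In the windows of Igtp, Irgm2, Tgtp1 and Tgtp2, the GAS form started 11 bases before the ISRE core, with 2 bases between them. This spacing was read from the members themselves and then counted in all windows. It occurred in 5 of 32851 windows (0.0152%), those of Igtp, Irgm2, Tgtp1, Tgtp2 and Gm12185, a neighbouring IRG relative. These windows are not independent sequences. Those of Igtp and Irgm2 were 92.1% identical over 265 aligned bases with an unbroken shared run of 61 bases, and those of Tgtp1 and Tgtp2 were 74% identical over 285 aligned bases. Across the 2 pairs, Tgtp1 and Irgm2 shared a run of 20 bases. The ISRE core started between 34 and 77 bases upstream of the start in these 4 genes, and 30 and 24 bases upstream in Irgm1. The Ifi47 window, at the most upstream of its annotated starts, held neither set of letters. A match describes the sequence and is not a binding site, and no binding was measured in these samples.

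**Figure D2:**
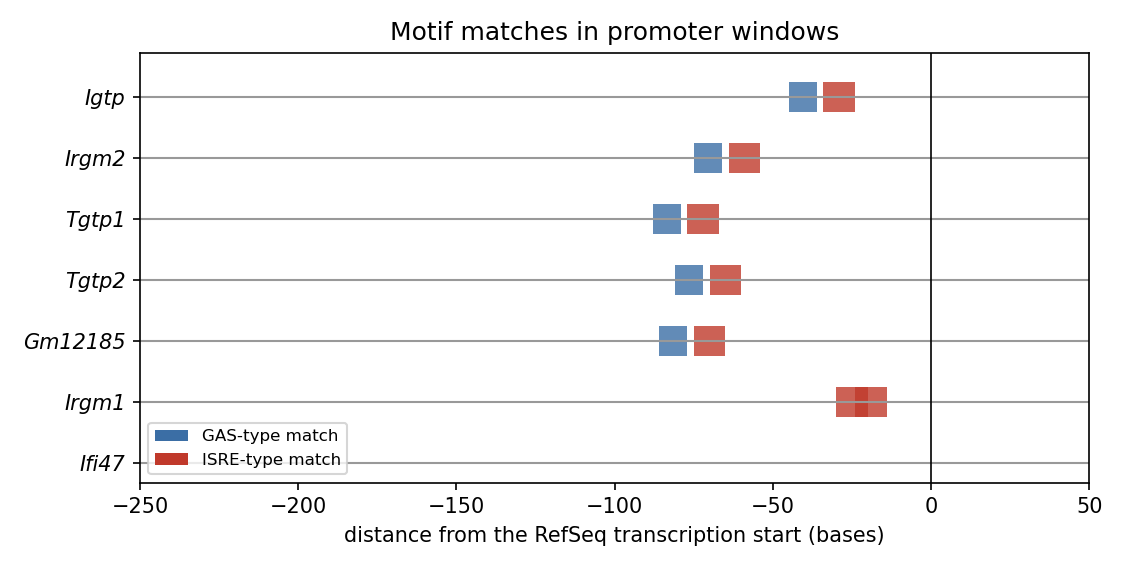
Positions of ISRE-type (GAAA, any 2 bases, GAAA, red) and GAS-type (TTCNNNGAA, blue) matches in the RefSeq promoter windows of 6 members and Gm12185, as distance in bases from the transcription start at 0. The blue and red boxes lie side by side in Igtp, Irgm2, Tgtp1, Tgtp2 and Gm12185, Irgm1 has 2 overlapping red boxes, and Ifi47 has none.

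Irgm1 (ENSMUSG00000046879) encodes the GMS protein whose loss in mice causes the broadest defects in resistance to infection. It lies on chromosome 11 of the mm10 build from 48861968 to 48871683, minus strand. Control replicates 1, 2 and 3 held 433, 465 and 492 reads of it, and LPS replicates 1, 2 and 3 held 3915, 3923 and 3610. The LPS libraries were all far above the controls, and neither group spread by more than a small part of the gap. The mean level went from 26 ± 0.659 to 236 ± 14.5 CPM (n = 3, SD), which is a log2 fold change of 3.18 (standard error, SE, 0.06, adjusted p = 5.8e-15 by edgeR). Leaving out any 1 library kept the log2 fold change between 3.14 and 3.23. Of all tested genes, 0.756% had a larger log2 fold change. Irgm1 was the most highly expressed member per kb of gene length in both groups, at 4.48 ± 0.113 CPM per kb in the controls and 40.6 ± 2.49 with LPS (SD, n = 3).

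Igtp (ENSMUSG00000078853), which encodes the GMS protein found on the endoplasmic reticulum and lipid droplets, lies on chromosome 11 from 58199556 to 58207591, plus strand. The controls held 80, 104 and 95 reads of it, against 1020, 1039 and 991 with LPS. The 3 LPS libraries lay close together, with a coefficient of variation of 3.52% beside 3.14% from counting alone. Igtp rose from 5.23 ± 0.621 to 62.8 ± 2.21 CPM (n = 3, SD), or by 3.58 on the log2 scale (SE 0.09, adjusted p = 2.4e-13 by edgeR; 3.5 to 3.67 on leaving out any 1 library).

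Irgm2 (ENSMUSG00000069874), which encodes the Golgi-associated GMS protein, follows Igtp on the same strand, from 58199618 to 58222782. The controls held 49, 49 and 58 reads of it, against 548, 645 and 583 with LPS, and the highest control library was far below the lowest LPS library. It rose from 2.92 ± 0.179 to 36.5 ± 2.47 CPM (n = 3, SD), or by 3.64 on the log2 scale (SE 0.11, adjusted p = 2.1e-12 by edgeR; 3.58 to 3.69 on leaving out any 1 library). The annotated genes overlap, since one transcript of Irgm2 starts within Igtp, and they share 162 exonic bases on the same strand (GENCODE release M21). That is 8.01% of the exonic bases of Igtp and 4.39% of those of Irgm2. How the authors' counting treated reads there is not given in the sources used here. With the counts of both genes summed as 1 feature the log2 fold change was 3.61 (SE 0.07, adjusted p = 1.1e-14 by edgeR), between those of the separate genes. The ratio of Igtp to Irgm2 counts per kb was 2.98, 3.87 and 2.99 in the controls, against 3.40, 2.94 and 3.10 after LPS, and the groups overlap.

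Among the effectors, Ifi47 (ENSMUSG00000078920) was the most counted. It lies on chromosome 11 from 49076587 to 49096974, plus strand. The controls held 30, 32 and 27 reads of it, against 75, 108 and 108 after LPS, with LPS replicate 1 nearest to the controls. Ifi47 rose from 1.67 ± 0.193 to 5.97 ± 1.06 CPM (n = 3, SD), and its log2 fold change was 1.84 (SE 0.22, 95% interval 1.37 to 2.30, adjusted p = 8.8e-06 by edgeR). The interval reaches below the fold threshold of 1.5, and glmTreat, which tests against that threshold itself, did not call Ifi47 (adjusted p = 1). The 95% intervals of the GMS genes were 3.05 to 3.30 for Irgm1, 3.39 to 3.78 for Igtp and 3.40 to 3.88 for Irgm2. Those intervals all lie above that of Ifi47, and no test of the difference between members was made. Of the exonic bases of Ifi47, 8.77% overlap another gene, Olfr56 on the same strand or Gm12188 on the other.

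Iigp1 (ENSMUSG00000054072), which encodes a well-studied effector that oligomerizes on the Toxoplasma vacuole in infected cells, lies on chromosome 18 from 60376029 to 60392627, plus strand. Reads of it numbered 0, 2 and 3 in the controls, against 21, 23 and 39 after LPS. All LPS libraries were above all controls, and LPS replicate 3 held nearly as much as the other LPS libraries together. The ratio of summed counts, scaled by library size, was 18.2, with a 95% exact binomial interval of 7.5 to 57.6 that covers counting error only. The log2 fold change was 4.08 (SE 0.59, adjusted p = 6.7e-05 by edgeR). It rests on 5 control counts and ran from 3.55 without control replicate 1 to 4.71 without control replicate 3.

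Tgtp1 (ENSMUSG00000078922) and Tgtp2 (ENSMUSG00000078921) encode Irgb6, an effector that binds early to the vacuole membrane. They lie on the minus strand of chromosome 11, from 48985327 to 48994172 and from 49057194 to 49064206. Tgtp1 reads numbered 0, 1 and 0 in the controls, against 6, 8 and 3 after LPS. Tgtp2 had none in any control, against 4, 4 and 3 after LPS. The groups do not overlap for either gene, but all of these values rest on 8 reads or fewer. The ratio of summed counts of Tgtp1 was 18.7, with a 95% exact binomial interval of 2.92 to 780. With the control group set at 3 counts in all, Tgtp2 was at least 4.03-fold higher with LPS, a bound that leaves out counting error. The 95% exact binomial lower limit for Tgtp2 was 2.76. Neither passed the filter on low counts, and their sum (0, 1 and 0 against 10, 12 and 6) did not pass it either. Without the filter, edgeR gave an adjusted p of 0.026 for Tgtp1 and 0.034 for Tgtp2. DESeq2 gave 0.046 for Tgtp1 and no adjusted p for Tgtp2 (unadjusted p = 0.017).

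Sequence shared between paralogs limits what these counts say about the single genes. Of all 50-base windows along the longest annotated transcript, 91.4% in Tgtp1 and 90.6% in Tgtp2 occurred letter for letter in a transcript of another gene, mostly in each other. For 100-base windows these shares were 83.3% and 80.4%. In Igtp and Irgm2 the shares of 50-base windows were 12.3% and 7.36%, in Ifi47 3.71%, in Iigp1 3.19%, and in Irgm1 none was shared. Gvin1 stood at the other end, with 99.2% of 50-base and 97.8% of 100-base windows shared, nearly all with Gm4070. The read length and the treatment of reads that match several genes are not given in the sources used here. The levels of Tgtp1, Tgtp2 and Gvin1 are therefore those of the reads that were assigned to them, and the share of their reads that was assigned was not tested.

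**Figure D3:**
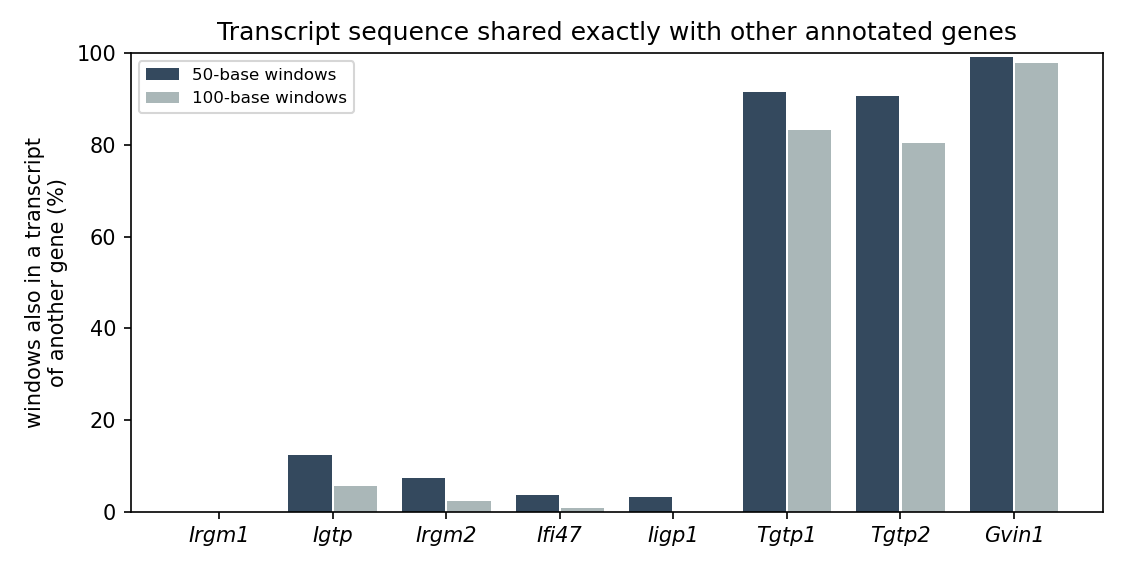
Percentage of 50-base (dark) and 100-base (light) windows along the longest GENCODE M21 transcript of each member that occur exactly in a transcript of another gene. Tgtp1, Tgtp2 and Gvin1 are above 80% at both window lengths, and the other 5 members are at 12.3% or below.

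Gvin1 (ENSMUSG00000045868) lies on chromosome 7 from 106156556 to 106215326, minus strand. It had 2, 5 and 14 counts in the controls and 48, 45 and 41 with LPS. The LPS libraries were alike, whereas control replicate 3 held 14 of the 21 control counts. Gvin1 rose from 0.384 ± 0.33 to 2.76 ± 0.273 CPM (n = 3, SD), or by 2.79 on the log2 scale (SE 0.42, adjusted p = 1.2e-04 by edgeR). Without control replicate 3 the log2 fold change was 3.72 and without control replicate 1 it was 2.37. With Gm4070, its closest paralog, summed into the same feature, the counts were 16, 22 and 38 against 211, 223 and 220, and the log2 fold change was 3.24 (SE 0.20, adjusted p = 7.2e-09 by edgeR).

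Ordered by level per kb of gene, the members in LPS-treated cells were Irgm1, Igtp, Irgm2, Ifi47, Iigp1, Gvin1, Tgtp1 and Tgtp2. Igtp stood at 31.1 ± 1.09 CPM per kb, Irgm2 at 9.9 ± 0.668, Ifi47 at 2.41 ± 0.427 and Iigp1 at 0.546 ± 0.187 (SD, n = 3). Gvin1 was at 0.307 ± 0.0304 CPM per kb. Tgtp1 at 0.109 ± 0.0483 and Tgtp2 at 0.0772 ± 0.0131 did not differ beyond their spread. In control cells the order began in the same way, but Irgm2 at 0.791 ± 0.0484 and Ifi47 at 0.676 ± 0.0781 CPM per kb lay close, with no overlap between libraries, and Gvin1 at 0.0427 ± 0.0366 and Iigp1 at 0.0293 ± 0.0266 did not differ beyond their spread. Gene lengths are those of the deposited table, 3121 bases for Iigp1, whereas GENCODE M21 lists 5823 exonic bases for that gene. With that length Iigp1 was at 0.292 ± 0.0998 CPM per kb with LPS (SD, n = 3), its libraries overlapped those of Gvin1, and the means of this pair changed order.

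The summed level of the 8 genes was 8.16, 9.02 and 8.65 CPM per kb in the controls, against 87, 86.8 and 81.1 after LPS. The GMS genes made up most of it in every library. Irgm1 held 52.1 ± 1.6% of the sum in control cells and 47.7 ± 1.3% with LPS, and Igtp held 29.9 ± 2.1% and 36.5 ± 0.39% (SD, n = 3). Irgm2 held 9.21 ± 0.76% and 11.7 ± 0.75%. The libraries of the groups did not overlap in the share of any of these genes. The share of Ifi47 was also lower with LPS although its level rose, from 8.68, 8.13 and 6.79% in the controls to 2.21, 3.07 and 3.28% after LPS. For such a share, the smallest p that an exact two-sided permutation test over 6 libraries allows is 0.1.

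**Figure D4:**
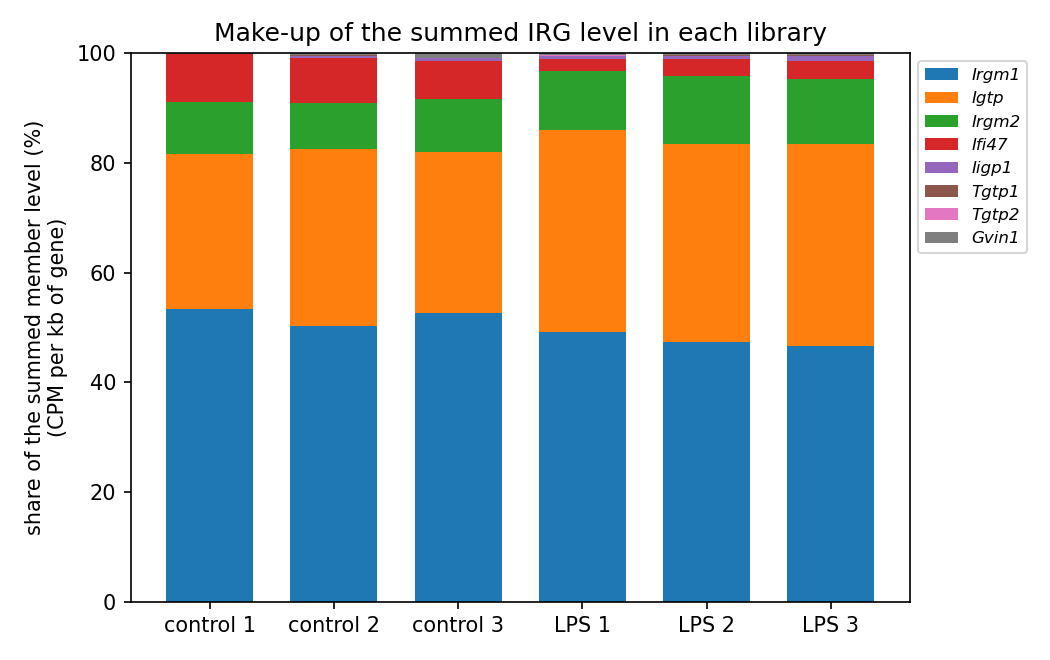
Share of each member in the summed level of the 8 genes (CPM per kb of gene, in percent) in each of the 6 libraries, stacked to 100%. Irgm1, Igtp and Irgm2 fill more than 90% of every bar, and the Ifi47 segment is between 6.79% and 8.68% in the controls and between 2.21% and 3.28% with LPS.

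The neighbours of these genes on the chromosome were read from the same fit. Between Irgm1 and Ifi47, over 235007 bases of chromosome 11, the table lists 13 genes, of which 6 were tested and 3 were up-regulated: Irgm1, Ifi47 and Gm5431. Of all tested genes, 2.4% were. Irgm1 and Ifi47 set the ends of this interval and were counted above as members, so Gm5431 was the only neighbour called. It passed the filter only through its LPS libraries. Gm5431, an IRG-like gene between Irgm1 and the Tgtp genes, had 3, 2 and 7 counts in the controls and 48, 43 and 31 with LPS, and rose by 3.44 on the log2 scale (SE 0.43, adjusted p = 1.6e-05 by edgeR). The tandem IRG genes 9930111J21Rik1 and 9930111J21Rik2 lie in the same interval. They had log2 fold changes of 1.21 (SE 0.28, adjusted p = 0.0034 by edgeR) and 0.78 (SE 0.15, adjusted p = 8.2e-04 by edgeR), both higher with LPS but under the fold threshold. Of their 50-base windows, 79.8% and 53.3% occurred in another gene, as did 47.6% of those of Gm5431. Psme2b, which is no IRG gene and overlaps 9930111J21Rik1 at its edge, had a log2 fold change of 0.37 (adjusted p = 0.077 by edgeR). Called and uncalled genes thus lie side by side in this cluster.

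On chromosome 7, the interval of the GVIN family from 105895139 to 106604035 holds 15 listed genes. The 4 that were tested were up-regulated, beside 2.4% of all tested genes: Gvin1, Gm4070, Gm8989 and Gm8995. The listed genes of the family set the ends of this interval, and Gvin1 was counted above as a member. Gvin1 and Gm8989 reached the filter minimum in 1 control library each and so were tested only through their LPS libraries. This in part fixes the count of 4. Gm8995, listed as a transcribed unprocessed pseudogene, was by far the most counted of the family, with 691, 848 and 785 counts in the controls and 3172, 3872 and 3867 with LPS. In the LPS libraries its counts were thus of the size of those of Irgm1, and in the controls they were higher. It rose from 43.5 ± 4.03 to 224 ± 20.1 CPM (n = 3, SD), or by 2.36 on the log2 scale (SE 0.07, adjusted p = 2.8e-12 by edgeR). Gm4070 rose by 3.37 (SE 0.19, adjusted p = 2.6e-09 by edgeR) and Gm8989 by 2.60 (SE 0.53, adjusted p = 0.0013 by edgeR). The value for Gm8989 was 3.65 without control replicate 2 and 2.18 without control replicate 3. Of their 50-base windows, 98.9% in Gm4070, 78.6% in Gm8989 and 19% in Gm8995 occurred in another gene, so the separate values of Gm4070 and Gm8989, and the count of 4, carry the same limit as that of Gvin1.

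Of the 17 listed IRG and GVIN relatives in the table, 9 were tested, 5 were up-regulated and none was down-regulated, beside 2.4% and 0.252% of all tested genes. Of the 5, Gm5431, Gm7609 and Gm8989 passed the filter only through their LPS libraries, so that this count, too, follows in part from the filter. The fifth gene, Gm7609, rose by 2.76 (SE 0.52, adjusted p = 7.6e-04 by edgeR), or by 4.06 without control replicate 3. Gm7609 lies on chromosome 1, away from the IRG and GVIN clusters, and the genes with which it shared the most windows were no IRG or GVIN genes, so its place in this list is not supported by these values. Without it, 4 of 8 tested relatives were up-regulated. For Gm5431 the value without that library was 4.05. Gm12250 (Irgb10), known as an effector of the GKS type, lies on chromosome 11 just before Igtp and is listed as a processed pseudogene. Its counts were 9, 6 and 26 in the controls and 24, 26 and 25 with LPS. In CPM its lowest LPS library was above its highest control library, but the log2 fold change of 1.01 (SE 0.43) did not pass (adjusted p = 0.085 by edgeR). Without control replicate 3, Gm12250 was called at 1.81 (adjusted p = 0.0077 by edgeR). Irgq, a distant family member, had 384, 398 and 434 counts against 387, 408 and 377, a log2 fold change of 0.08 (SE 0.08, adjusted p = 0.47 by edgeR). Gm12185 and Gm1966 were under the filter, with 2, 2 and 1 counts against 14, 11 and 5 for Gm12185 and 3, 4 and 3 against 7, 24 and 19 for Gm1966. Gm8979, a pseudogene of the GVIN family, had 0, 2 and 0 against 2, 2 and 0. Gm12185 and Gm1966 were called as well by DESeq2, by edgeR without the filter, and on leaving out any 1 of the control libraries. With Gm12250 that made 8 of 11 tested relatives without control replicate 3, and the 8 include Gm7609. Gm12250, Gm12185 and Gm1966 reached the filter minimum in 1, 0 and 0 control libraries, so this count also follows in part from the filter.

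**Figure D5:**
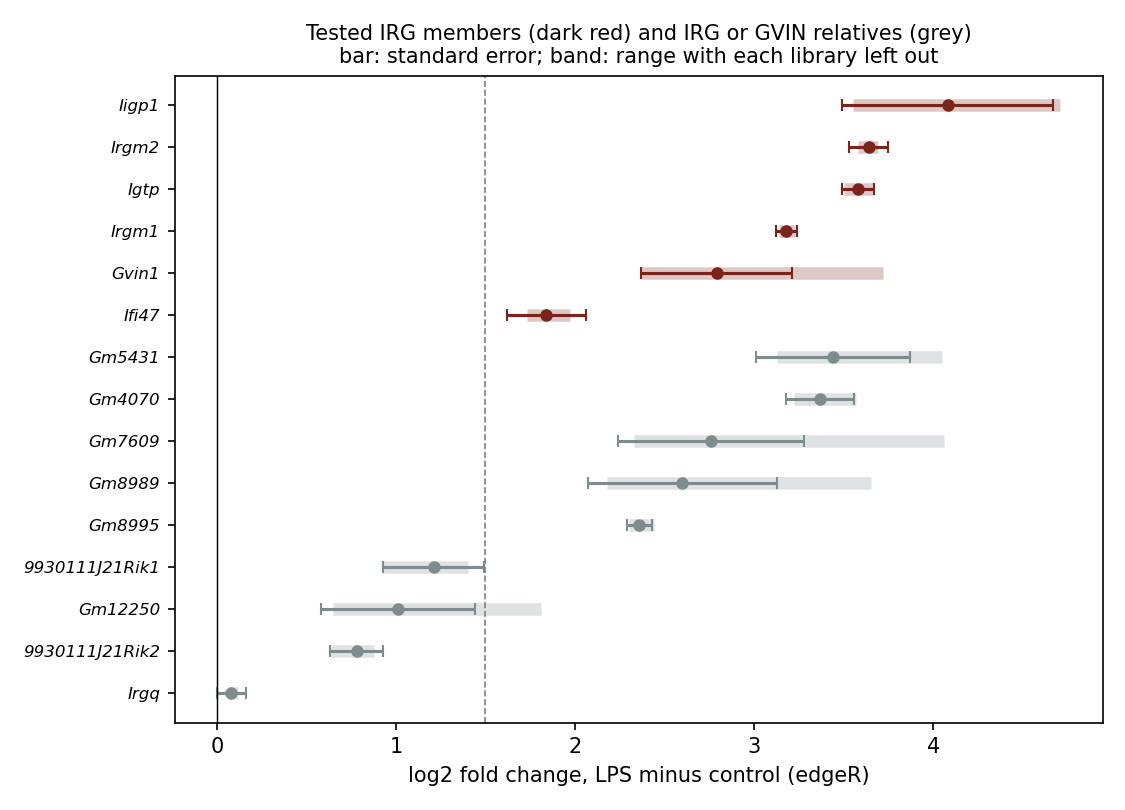
Log2 fold change of LPS against control from edgeR for the 6 tested members (dark red) and the 9 tested genes listed as relatives (grey), with the standard error as a bar and the range over 6 fits that each left out 1 library as a pale band; the dashed line marks 1.5. Irgm1, Igtp and Irgm2 have narrow bands between 3.14 and 3.69, Ifi47 lies just right of the dashed line, and Irgq lies near 0.

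Control replicate 3 stood high for several of the sparse genes. It held 26 of 41 control counts of Gm12250, 9 of 12 of Gm7609, 7 of 12 of Gm5431 and all 3 of Gbp5, genes singled out after their values were seen. Over the 20 tested members, relatives and guanylate-binding proteins, control replicate 3 was the highest of the controls in CPM for 10, control replicate 2 for 8 and control replicate 1 for 2, whereas over all tested genes these shares were 28%, 34.7% and 37.2%. The hepatocyte markers were also highest in control replicate 3, and their part in these values was not tested.

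The guanylate-binding proteins, GTPases that act with the IRG proteins at the same vacuoles, had larger fold changes than most IRG genes, a difference that was not tested. Of 11 in the table, 5 were tested and these 5 were up-regulated, with a median log2 fold change of 5.66, beside 2.4% and 0 for all tested genes. Gbp5 and Gbp9 reached the filter minimum in 0 and 1 control libraries, so the count and the median follow in part from the filter. Gbp7 rose by 6.48 (SE 0.12, adjusted p = 4.9e-15 by edgeR) and Gbp2 by 5.66 (SE 0.15, adjusted p = 3.6e-13 by edgeR). Gbp5 had 0, 0 and 3 counts in the controls and 62, 80 and 63 with LPS. The smallest of the 5 changes was that of Gbp9, at 3.22 on the log2 scale, which lies within the range of the GMS genes.

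Of the 16 interferon receptor, kinase and transcription factor genes tested, 4 were up-regulated, all of them transcription factors, and 2.4% of all tested genes were. Of the 6 ligand genes listed, Ifnb1 had 1, 1 and 0 counts in the LPS libraries and none in the controls, and the others had none in any library. None of the 7 receptor and kinase genes was called by edgeR or by DESeq2, and 5 of them had an unadjusted p under 0.05. With 2.65% of all tested genes called, 0 of 7 is near the background. Without the fold threshold 3 passed as higher and 1 as lower, beside 18.6% and 15.6% of all tested genes. Tyk2 was at a log2 fold change of 0.92 (adjusted p = 8.1e-09 by edgeR), Ifngr2 at 0.56 (adjusted p = 2.6e-07 by edgeR) and Ifngr1 at -0.29 (adjusted p = 0.026 by edgeR). Ifngr1, the gene that passed as lower, did not pass with DESeq2 (adjusted p = 0.079). Nor did it pass without control replicate 1, LPS replicate 1 or LPS replicate 2 (adjusted p = 0.078, 0.051 and 0.085 by edgeR). Of the 9 transcription factors, 4 were up-regulated. Irf7, an interferon-induced amplifier of interferon genes, rose by 3.97 on the log2 scale (SE 0.07, adjusted p = 6.4e-15 by edgeR). Stat2 rose by 2.24 (SE 0.09, adjusted p = 3.6e-11 by edgeR) and Irf9 by 2.08 (SE 0.07, adjusted p = 8.0e-12 by edgeR). Upstream, 1 of 8 genes of the LPS receptor and TRIF arm was up-regulated, beside 2.4% of all tested genes. This was the kinase Ikbke, which rose by 1.81 (SE 0.06, adjusted p = 5.4e-12 by edgeR). By adjusted p alone, 5 of the 8 passed as higher and 1 as lower, beside 18.6% and 15.6% of all tested genes. Ticam1, which encodes TRIF, was at 0.81 (adjusted p = 1.7e-06 by edgeR) and Cd14 at 0.61 (adjusted p = 2.1e-10 by edgeR), both higher with LPS but under the fold threshold. Tlr4, the LPS receptor itself, was lower with LPS at -0.52 (SE 0.06, adjusted p = 3.6e-06 by edgeR), also under the fold threshold.

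The Atg8 conjugation system of autophagy directs IRG and guanylate-binding proteins to vacuoles. None of the 15 listed genes of this system and its adaptors was called by edgeR or by DESeq2, and 6 had an unadjusted p under 0.05. With 2.65% of all tested genes called, 0 of 15 is near the background. Without the fold threshold, 4 passed as higher and 1 as lower, beside 18.6% and 15.6% of all tested genes. Of the 4, Gabarapl1 (adjusted p = 0.02 by edgeR) did not pass with DESeq2 (adjusted p = 0.076). The median log2 fold change was -0.02. Sqstm1, the ubiquitin-binding adaptor p62, had the largest change at 1.21 (SE 0.04, adjusted p = 1.8e-12 by edgeR), followed by Ulk1 at -0.35 (adjusted p = 0.002 by edgeR) and Nbr1 at 0.30 (adjusted p = 3.7e-04 by edgeR).

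The genes outside these lists with the pattern most like the tested members over the 6 libraries were Jag1, Ier3, Lrrc25, Oas1b and Fas. Likeness was the Euclidean distance between log2(CPM + 0.5) values centred on each gene's mean, among 10390 tested genes that averaged 50 or more counts. The distance from the members' mean profile ran from 0.155 for Jag1 to 0.269 for Fas. The log2 fold changes of these genes ran from 2.42 for Ier3 to 3.18 for Oas1b, below the median of 3.38 of the tested members. The added 0.5 CPM exceeds the mean control levels of Iigp1 (0.0916 CPM) and Gvin1 (0.384 CPM), which makes their differences smaller in the mean profile. Jag1, a Notch ligand, rose from 6.91 ± 1.02 to 41.9 ± 1.88 CPM (SD, n = 3), and Oas1b, an interferon-induced antiviral gene, from 0.968 ± 0.234 to 8.91 ± 0.408 CPM. With 2 groups of 3 libraries, likeness mostly reflects the size of the difference between groups.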

How the data were processed

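RNA-seq of 3 control and 3 LPS samples of N9 microglia was analysed, grouped by the sample titles. The authors deposited raw read counts per gene. Per the labels, featureCounts 1.5.0-p3 and mm10 were used for them, and the aligner, read length and strand setting are not given in the sources used here. A deposited table of the authors' own DESeq2 comparison, with fold changes, p-values and 18 columns of values per sample, was not used. No line lacked a gene name. Gene length in bases, another deposited column, served for CPM per kb only.

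Counts were tested with edgeR 4.0.16 (R 4.3.3): TMM normalization, filterByExpr by group, quasi-likelihood test with a prior count of 0.125 (prior degrees of freedom 10.1), no replicate term, and Benjamini-Hochberg adjustment over 12296 genes. The standard error is the log2 fold change divided by the square root of F. The fits were tested on simulated data. Alternatives were DESeq2 1.42.0, RLE factors, no filter, glmTreat, a replicate block, libraries left out, and summed paralogs. Counting limits cover counting error only. Overlaps and shared windows came from GENCODE M21 transcripts on GRCm38, whose gene start and end matched the table for 7 of 8 members, promoters from RefSeq, and figures from matplotlib 3.10.9.

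The members and gene lists were chosen with earlier results of these data known. Genes named are all members and the relatives with a mean of at least 1 count. Of each other list they are the 3 tested genes with the largest change, with any counted interferon ligand. The 5 genes of most similar pattern are named too. Gbp9, Gabarapl1, Psme2b, Tlr4, Olfr56, Gm12188 and marker genes were named outside that rule.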

Additional observations from a re-analysis of the deposited data

How the results depend on the processing

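The 6 members were called in every fit with 1 library left out and with RLE factors. DESeq2 called 7 (adding Tgtp1), edgeR without the filter 8, and glmTreat 4, since Ifi47 and Gvin1 (adjusted p = 0.074) were not called against a fold change of 1.5 itself. Gm7609 and Gm8989 were not called by glmTreat either. With summed paralogs, 5 features were called, since Igtp and Irgm2 form 1 feature, and Tgtp1 plus Tgtp2 stayed under the filter. Among the tested members, the tested relatives and the tested genes named from the other lists by the stated rule, no log2 fold change reversed. The genes of similar pattern, Ifnb1, Gbp9, Gabarapl1, Psme2b, Tlr4, Gm12185, Gm8979 and Gm1966 were not followed this way. Tgtp1 and Tgtp2 had a fit only with DESeq2 and without the filter. glmTreat called 183 genes over the whole table and 3 relatives, beside 326 and 5; edgeR without the filter called 469 genes and 8 guanylate-binding proteins, beside 5. With each library left out in turn, between 353 and 377 genes and between 5 and 8 relatives were called. With control replicates 2 and 3 dropped, which leaves 1 control library and the spread of the LPS libraries alone, 6 members were called, a fit that says nothing of their stability. Gvin1 was at 4.48, and Iigp1, then at 0 control counts, was at least 9.75-fold higher against 3 counts in that library. Same-numbered control and LPS libraries deviated together with r = 0.13, 0.05 and 0, so the numbers were not taken to pair the samples. A replicate block gave 329 genes, 6 members, 5 relatives, 5 guanylate-binding proteins, 4 interferon pathway genes, 1 gene of the LPS receptor arm and 0 of the Atg8 list. Low counts limit Tgtp1, Tgtp2 and Iigp1, and shared sequence limits Tgtp1, Tgtp2 and Gvin1.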
